A study of Arabidopsis thaliana with 12 samples.

Results

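The sulfur-deficiency marker genes followed here are 7 Arabidopsis genes, *SDI1*, *LSU1*, *LSU2*, *BGLU28*, *BGLU30*, *GGCT2;1* and *SHM7*, selected by their AGI locus numbers out of the 33602 genes in the deposited tables. The choice was made with earlier results of these data known. All 7 were among the 20957 genes that passed a filter on low counts, and each had more than 3 counts in every library. RNA came from whole seedlings, roots included, grown for 8 days in continuous light on medium with sucrose, about 200 pooled seedlings per library. The 4 genotypes, with 3 libraries each, were WT (Col-0), *jazQ* (a quintuple mutant with T-DNAs in the jasmonate repressor genes *JAZ1*, *JAZ3*, *JAZ4*, *JAZ9* and *JAZ10*), *phyB* (*phyB-9*, a null allele of the red-light photoreceptor gene *PHYB*) and *jazQ phyB*, obtained by crossing and carrying all of these alleles. Each mutant is 1 line, and mutants were grown on the same plates as WT. No sulfur treatment was part of the design, so the comparisons concern the basal level of the marker genes.

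When sulfate runs short, plants raise a small set of transcripts through the transcription factor SLIM1 and through other signals of low sulfur status, and these 7 genes are members of that set in Arabidopsis. SDI1 is a tetratricopeptide-repeat protein that restrains glucosinolate synthesis, and LSU1 and LSU2 are small coiled-coil proteins of the low-sulfur response. BGLU28 and BGLU30 are beta-glucosidases that release sulfur from glucosinolates, GGCT2;1 is a gamma-glutamyl cyclotransferase that breaks down glutathione, and SHM7 is a serine hydroxymethyltransferase that bears on S-adenosylmethionine supply and sulfate accumulation.

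In the TAIR10.1 assembly, *SDI1* (AT5G48850) lies on the minus strand of chromosome 5 from 19805437 to 19807853. *LSU2* (AT5G24660) lies on the same chromosome and strand from 8443279 to 8444101, and *GGCT2;1* (AT5G26220) from 9162969 to 9164884, also on the minus strand. *LSU1* (AT3G49580) occupies 18374908 to 18375940 of chromosome 3 on the minus strand, and *BGLU30* (AT3G60140) 22216540 to 22220824 of that chromosome on the plus strand. *BGLU28* (AT2G44460) runs from 18346306 to 18350026 on the plus strand of chromosome 2, and *SHM7* (AT1G36370) from 13696042 to 13698739 on the minus strand of chromosome 1. No other annotated gene overlapped any of the 7. *LSU1* has its paralog *LSU3* 1760 bases away, *LSU2* has *LSU4* 1914 bases away and *BGLU28* has *BGLU29* 4159 bases away. No stretch of 50 bases, the read length, in a transcript of the 7 genes was also present in a transcript of another gene, so reads of these neighbours can be told apart.

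The sulfur-responsive element known from Arabidopsis promoters has the core GAGAC, which was searched on both strands of the 250 bases upstream of each gene start. The core occurred once in each of *SDI1*, *BGLU28*, *BGLU30* and *GGCT2;1*, that is in 4 of the 7 genes, and 25.8% of 27443 protein-coding genes held it in a stretch of the same length. The G-box CACGTG, a motif bound by MYC and PIF transcription factors, was in none of the 7 stretches and in 6.49% of all. The upstream stretches of the 4 genes with a core are shown because they carry this one sequence feature of the marker genes. The whole 250 bases are given for *SDI1*, the gene with the clearest difference between genotypes, and 20 bases on each side of the core for the other genes. All run 5′ to 3′ on the strand of the gene, with the core in capitals, GTCTC being the core read from the opposite strand. They lie at chr5:19807854-19808103 (minus strand), chr2:18346171-18346215 (plus strand), chr3:22216465-22216509 (plus strand) and chr5:9164939-9164983 (minus strand), and the cores begin 23, 115, 55 and 79 bases upstream of the gene starts.
*SDI1*: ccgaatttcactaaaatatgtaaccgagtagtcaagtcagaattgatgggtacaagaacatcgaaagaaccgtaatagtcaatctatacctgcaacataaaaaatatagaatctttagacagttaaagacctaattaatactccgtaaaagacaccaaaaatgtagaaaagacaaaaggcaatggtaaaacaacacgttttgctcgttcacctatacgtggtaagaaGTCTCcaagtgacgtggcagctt
*BGLU28*: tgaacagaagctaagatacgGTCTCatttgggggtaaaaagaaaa
*BGLU30*: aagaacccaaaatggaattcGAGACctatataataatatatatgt
*GGCT2;1*: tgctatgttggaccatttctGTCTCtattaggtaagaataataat
A match is a description of the letters only and does not show that a factor binds there.

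The libraries held between 12750074 and 26347184 counts, so that 3 counts correspond to 0.116 to 0.23 CPM. CPM are counts scaled to the library total times its TMM normalization factor, which ran from 0.944 (*jazQ* library 1) to 1.06 (*phyB* library 2). Libraries of 1 genotype differed by 2.21 to 14.2 times the variance that counting alone gives. Of the mutated genes, *PHYB* was lower in *phyB* (log2 fold change -0.60, adjusted p = 2.3e-05) and in *jazQ phyB* (-0.64, adjusted p = 1.41e-05). In *jazQ*, the counts assigned to *JAZ1* (-3.26) and *JAZ4* (-1.22) fell, those of *JAZ3* (5.47) and *JAZ10* (6.16) rose, and *JAZ9* was at 0.14 (adjusted p = 0.627). Counts over a gene with an insertion need not come from an intact transcript. The authors call the 3 RNA samples of each genotype independent biological replicates. The labels name pooled seedlings and do not say that the 3 libraries of a genotype came from separate batches. The p-values thus measure the spread between these libraries. Among 6 markers of photosynthetic tissue and 7 markers of root none was at 0 in all libraries of a genotype. The root marker *NRT2.1* had at most 3 counts in any library, was at 0 in some, and was not tested. The summed level of the shoot markers was 21336 to 23197 TPM (abundance corrected for transcript length and library total) in WT, 23382 to 25179 in *jazQ*, 15995 to 17104 in *phyB* and 18991 to 24218 in *jazQ phyB*. That of the root markers was 116 to 124, 109 to 120, 106 to 129 and 117 to 150 TPM in the same order. *IRT1* alone held 63.56 to 74.94 TPM in WT and 28.4 to 49.63 TPM in *phyB*, so these sums do not show the other root markers. In *jazQ phyB* against WT, the root markers *COBL9* (0.51, adjusted p = 0.00931) and *CASP1* (0.49, adjusted p = 0.00953) were called higher. *IRT1* was at -0.31 there (adjusted p = 0.27), and the shoot marker *PSBO1* was called lower (-0.32, adjusted p = 0.00283).

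On the length-corrected TPM scale, *SHM7* was the most abundant of the 7 transcripts, with genotype means of 59.6 to 86.4 TPM. *LSU2* followed with 16.7 to 24.5 TPM. *SDI1* (6.16 to 15.8 TPM), *LSU1* (7.36 to 10.8 TPM) and *GGCT2;1* (8.95 to 11.3 TPM) had overlapping ranges and changed places between genotypes. The beta-glucosidase transcripts were rare, with 1.47 to 2.83 TPM for *BGLU28* and 0.717 to 1.34 TPM for *BGLU30*. Summed over the 7 genes, the level was between 99.5 and 164 TPM per library, and without *SHM7* between 38.3 and 78.5 TPM.

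**Figure D1:**
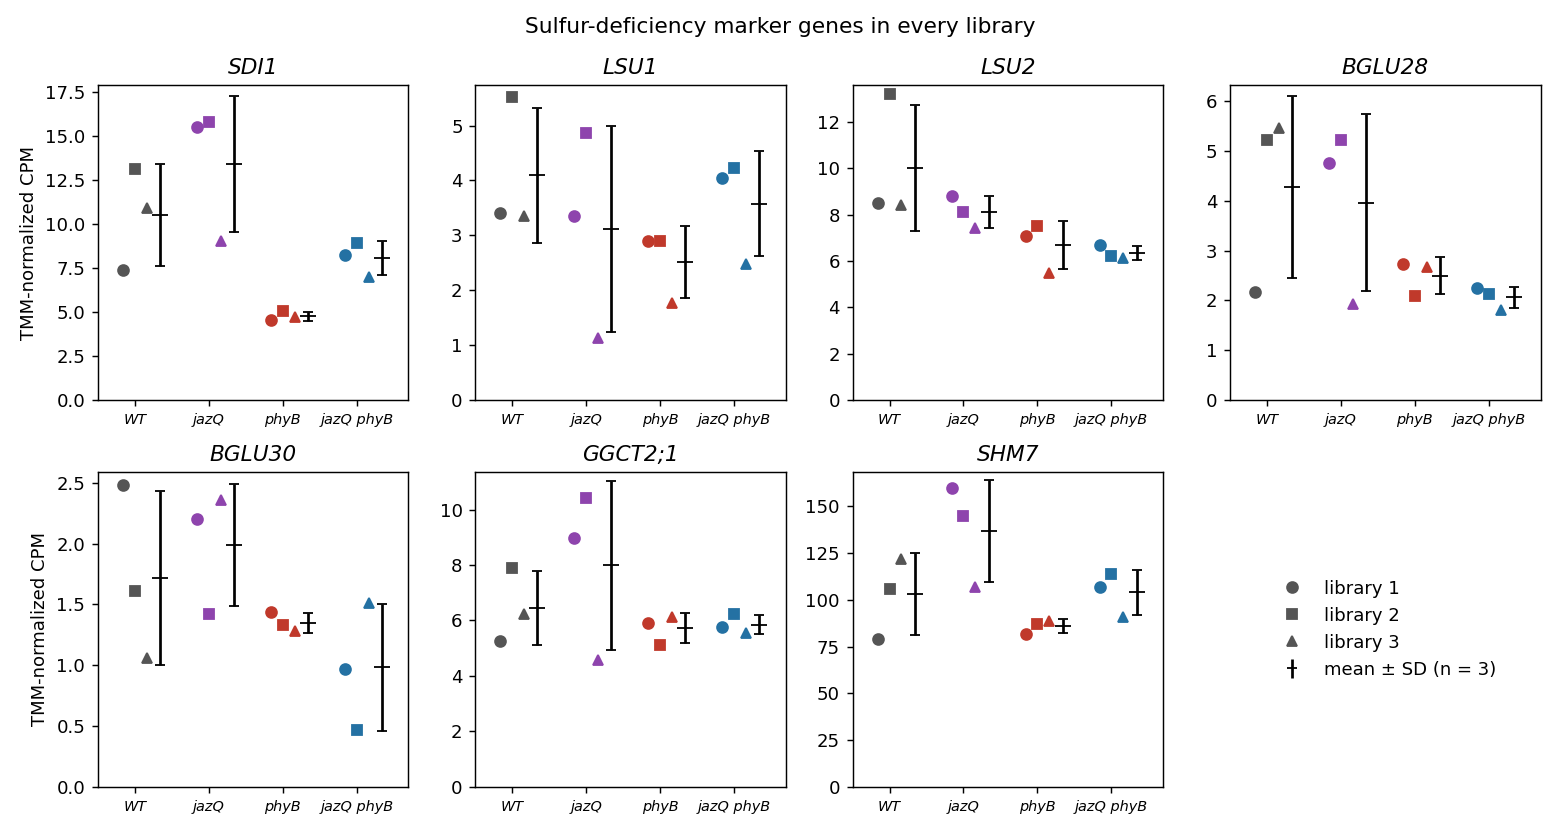
TMM-normalized CPM (y axis, starting at 0, a separate scale for each gene) of the 7 marker genes in the 12 libraries, grouped by genotype on the x axis, with the mean ± SD (n = 3) in black. The 3 *phyB* libraries of *SDI1* (4.55 to 5.04 CPM) sit below every library of the other genotypes, and library 3 of *jazQ* (triangle) sits below its 2 companions for 6 of the 7 genes.

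*SDI1* showed the widest separation of the genotypes. In WT it was at 7.4, 13.1 and 10.9 CPM and in *jazQ* at 15.5, 15.8 and 9 CPM. In *phyB* it was at 4.55, 5.04 and 4.69 CPM, and in *jazQ phyB* at 8.21, 8.93 and 7.01 CPM. All 3 *phyB* libraries were below all the others, and the libraries of *jazQ phyB* lay between those of *phyB* and *jazQ* without overlapping either. The means were 10.5 ± 2.87, 13.4 ± 3.84, 4.76 ± 0.255 and 8.05 ± 0.97 CPM (SD, n = 3) in the order WT, *jazQ*, *phyB*, *jazQ phyB*. Between neighbours in the order of the means, *jazQ* and WT overlapped, as did WT and *jazQ phyB*.

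The pair of low-sulfur genes had different patterns. *LSU1* was at 3.41, 5.52 and 3.35 CPM in WT, at 3.36, 4.87 and 1.14 CPM in *jazQ*, at 2.89, 2.89 and 1.76 CPM in *phyB* and at 4.04, 4.23 and 2.48 CPM in *jazQ phyB*. The lowest *jazQ* value rests on 16 counts, and *jazQ* spanned the values of nearly all other libraries. *LSU2* was at 8.49, 13.2 and 8.4 CPM in WT and at 8.8, 8.12 and 7.43 CPM in *jazQ*. It was at 7.07, 7.49 and 5.5 CPM in *phyB* and at 6.68, 6.23 and 6.11 CPM in *jazQ phyB*. Every *LSU2* value of the *phyB* and *jazQ phyB* libraries was thus below the lowest WT value.

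Of the glucosinolate-cleaving enzymes, *BGLU28* was at 2.17, 5.21 and 5.47 CPM in WT and at 4.75, 5.21 and 1.93 CPM in *jazQ*. It was at 2.74, 2.08 and 2.67 CPM in *phyB* and at 2.24, 2.12 and 1.81 CPM in *jazQ phyB*. WT and *jazQ* each had 1 library at or below the level of *phyB*, and the other libraries of both genotypes were above it. *BGLU30*, also known as the dark-inducible gene *DIN2*, was at 2.48, 1.61 and 1.06 CPM in WT, at 2.2, 1.42 and 2.36 CPM in *jazQ*, at 1.44, 1.33 and 1.28 CPM in *phyB* and at 0.966, 0.47 and 1.51 CPM in *jazQ phyB*. These values stand on 8 to 64 counts per library, and WT overlapped every mutant.

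The glutathione-degrading gene *GGCT2;1* was at 5.27, 7.89 and 6.23 CPM in WT, at 8.97, 10.4 and 4.57 CPM in *jazQ*, at 5.92, 5.12 and 6.14 CPM in *phyB* and at 5.75, 6.23 and 5.56 CPM in *jazQ phyB*. Only *jazQ* had libraries above the WT range, and it also had the lowest value of the 12. *SHM7* was at 79.3, 106 and 122 CPM in WT, at 160, 145 and 107 CPM in *jazQ*, at 81.7, 87 and 88.9 CPM in *phyB* and at 107, 114 and 91 CPM in *jazQ phyB*. The *phyB* libraries of *SHM7* were below every *jazQ* and *jazQ phyB* library and within the WT range.

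Whether loss of the 5 JAZ repressors changed the marker genes was asked by comparing *jazQ* with WT. At an adjusted p below 0.01 in edgeR's quasi-likelihood test, 0 of the 7 were called, against 1.54% of all genes tested (0.997% higher and 0.544% lower). At an unadjusted p below 0.05, 1 of the 7 passed (17.2% of all genes), and 0 were called with DESeq2, with edgeR's exact test or with limma. The log2 fold change was positive for 4 genes and negative for 3, with a median of 0.17 (-0.01 over all genes). *SHM7* had the largest positive value (0.43, SE 0.15, adjusted p = 0.149), followed by *SDI1* (0.40, SE 0.21, adjusted p = 0.367), the glutathione-degrading gene (0.34, adjusted p = 0.504) and *BGLU30* (0.17, adjusted p = 0.87). *BGLU28* was at -0.05 (adjusted p = 0.967), *LSU2* at -0.28 (adjusted p = 0.443) and *LSU1* at -0.35 (adjusted p = 0.713). For all 7 genes the libraries of the genotypes overlapped, and 20.4% of all genes tested had libraries that did not.

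Loss of phyB alone gave the one call against WT. *SDI1* fell by 1.11 on the log2 scale (SE 0.23, adjusted p = 0.00408), to 0.465 of the WT level, with no overlap between the 3 libraries of each genotype. It was the only gene called of the 7, against 11.8% of all genes tested (4.7% higher and 7.06% lower), and 2 of the 7 had an unadjusted p below 0.05 (34.9% of all genes). All 7 log2 fold changes were negative, with a median of -0.57 (0.01 over all genes). Next in order of p was *LSU2* at -0.57 (SE 0.17, adjusted p = 0.0277), whose libraries did not overlap those of WT. *BGLU28* (-0.72, SE 0.36, adjusted p = 0.176) and *LSU1* (-0.70, SE 0.38, adjusted p = 0.218) had differences of similar size with larger errors. *BGLU30* was at -0.40 (adjusted p = 0.482), *SHM7* at -0.25 (adjusted p = 0.265) and the glutathione-degrading gene at -0.15 (adjusted p = 0.71). In 3 of the 7 genes the libraries did not overlap, against 39.5% of all genes tested.

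The *SDI1* call in *phyB* was also made with DESeq2, edgeR's exact test and limma, but it was lost when some single libraries were left out. Without WT library 1, the low one of its genotype, it was kept (-1.33, adjusted p = 0.000833). With any 1 library of *phyB* left out the adjusted p was 0.0194, 0.0152 or 0.0185. Without WT library 2 it was 0.0189 and without WT library 3 it was 0.0133, while the log2 fold change stayed at -0.92 or below. Over all single-library omissions, the share of all genes called in this comparison was 6.54% to 11.9%, beside 11.8% with every library. In the *phyB* libraries 5 of the 6 shoot markers were called lower (*LHCB1.1* by 1.18 on the log2 scale, adjusted p = 0.000104), and of the root markers *CASP1* (0.58) and *CASP2* (0.60) were called higher and *IRT1* (-1.04) lower. In whole seedlings, fewer cells of a type and less RNA per cell cannot be told apart, and the part of tissue composition in the *SDI1* result was not tested.

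**Figure D2:**
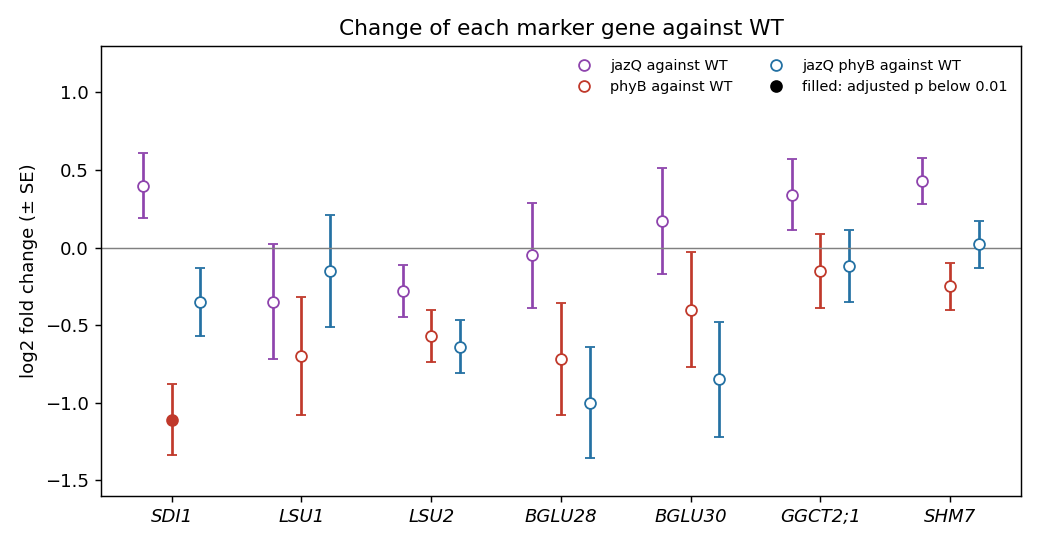
Log2 fold change against WT (y axis, ± SE derived from edgeR's F statistic) of each marker gene (x axis) in *jazQ* (purple), *phyB* (red) and *jazQ phyB* (blue). Filled symbols mark an adjusted p below 0.01. *SDI1* in *phyB* (-1.11) is the only filled symbol, and all 7 *phyB* values are below 0.

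In *jazQ phyB*, 0 of the 7 genes were called against WT in edgeR's quasi-likelihood test, compared with 9.77% of all genes tested (3.75% higher and 6.02% lower), while 3 had an unadjusted p below 0.05 (30.6% of all genes). *LSU2* was closest to a call (-0.64, SE 0.17, adjusted p = 0.0172) and was the 1 gene whose libraries did not overlap those of WT, as 32.9% of all genes tested did not. DESeq2 (adjusted p = 0.00843) and edgeR's exact test (adjusted p = 0.00375) each called it, making 1 of 7 with either tool, and limma called 0. Over the alternative settings other than left-out libraries, 6.44% to 18.7% of all genes were called in this comparison. *BGLU28* had the largest difference, at 0.501 of the WT level (SE 0.36 on the log2 scale, adjusted p = 0.072). It passed the threshold when WT library 1, the low one of its genotype, was left out (log2 fold change -1.37, adjusted p = 0.00804). *BGLU30* was at -0.85 (SE 0.37, adjusted p = 0.134), *SDI1* at -0.35 (adjusted p = 0.308), *LSU1* at -0.15 (adjusted p = 0.826), the glutathione-degrading gene at -0.12 (adjusted p = 0.78) and *SHM7* at 0.02 (adjusted p = 0.939). The median was -0.35 (0.00 over all genes).

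The mutants were also compared directly, in comparisons that share libraries with those against WT and with each other. Between *phyB* and *jazQ*, 2 of the 7 genes were called, both lower in *phyB*, against 14.1% of all genes tested. *SDI1* was lower by a log2 fold change of -1.50 (SE 0.23, adjusted p = 0.000334), which is 0.353 of the *jazQ* level. *SHM7* was lower by -0.68 (SE 0.15, adjusted p = 0.00504). In both genes the libraries did not overlap, as in 42.1% of all genes tested. The other 5 values were also negative, from -0.29 for *LSU2* to -0.67 for *BGLU28*, none with an unadjusted p below 0.05 (37.1% of all genes). The *SHM7* call was lost with limma on log2(TPM + 1) (adjusted p = 0.0186) and log2(TPM + 0.1) (0.0187). It was also lost without *jazQ* library 1 (0.0301) or 2 (0.0191) and without *phyB* library 1 (0.0248), 2 (0.02) or 3 (0.0154).

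Adding *phyB* to *jazQ* gave 0 calls among the 7 genes (6.79% of all genes tested), with 4 at an unadjusted p below 0.05 (28.5% of all genes) and 0 by DESeq2, the exact test or limma. *SDI1* was at -0.74 (SE 0.21, adjusted p = 0.0313) and *SHM7* at -0.40 (SE 0.15, adjusted p = 0.0921). The beta-glucosidase genes had the largest differences, *BGLU30* at -1.02 (SE 0.37, adjusted p = 0.0853) and *BGLU28* at -0.95 (SE 0.37, adjusted p = 0.103). The glutathione-degrading gene was at -0.46 (adjusted p = 0.208), *LSU2* at -0.36 (adjusted p = 0.194) and *LSU1* at 0.20 (adjusted p = 0.779). The libraries of *SDI1* and *LSU2* did not overlap, as in 31.5% of all genes tested.

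Adding *jazQ* to *phyB* likewise gave 0 calls among the 7 (11.8% of all genes tested), with 1 at an unadjusted p below 0.05 (34.5% of all genes) and 0 by DESeq2, the exact test or limma. *SDI1* was at 0.76 (SE 0.24, adjusted p = 0.0345), or 1.69 times the *phyB* level, and it was called (adjusted p = 0.00199) when only the libraries of these genotypes entered the fit. *LSU1* was at 0.55 (adjusted p = 0.346), *SHM7* at 0.28 (adjusted p = 0.22) and the glutathione-degrading gene at 0.03 (adjusted p = 0.954). *LSU2* was at -0.06 (adjusted p = 0.842), *BGLU28* at -0.28 (adjusted p = 0.662) and *BGLU30* at -0.46 (adjusted p = 0.45). The libraries of *SDI1* and *SHM7* did not overlap, against 40.3% of all genes tested.

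Whether the effect of *phyB* differed between the *jazQ* and the WT background was tested as an interaction. None of the 7 genes was called, against 3.61% of all genes tested (1.9% higher and 1.7% lower). An unadjusted p below 0.05 was reached by 0 of the 7 and by 24.2% of all genes, and DESeq2 and limma called 0. The estimates ranged from -0.63 for *BGLU30* (SE 0.53, adjusted p = 0.51) to 0.89 for *LSU1* (SE 0.54, adjusted p = 0.338). *SDI1* was at 0.36 (SE 0.32, adjusted p = 0.532), *LSU2* at 0.22 (SE 0.24), *SHM7* at -0.15 (SE 0.22), *BGLU28* at -0.23 (SE 0.52) and the glutathione-degrading gene at -0.31 (SE 0.33). The SE was smallest for *SHM7* and largest for *LSU1*.

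A library effect common to several marker genes was visible within the genotypes. *jazQ* library 3 had the lowest value of its genotype for 6 of the 7 genes, all but *BGLU30*, with deviations from the genotype mean of -1.15 for *LSU1*, -0.88 for *BGLU28*, -0.71 for the glutathione-degrading gene and -0.53 for *SDI1* on the log2 scale. Library 3 of *jazQ phyB* was likewise the lowest for 6 of the 7, with deviations of -0.47 for *LSU1* and -0.19 for *SDI1*. In WT, library 1 was the lowest for 4 genes and library 3 for 3 genes, and in *phyB* the lowest values were spread over the libraries (2, 2 and 3 genes). *jazQ* library 3 had 14338359 counts, and its summed shoot markers (23382 TPM, beside 25179 and 24262) and root markers (113 TPM, beside 120 and 109) lay near those of its companions. The part of depth or tissue in its low values was not tested.

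Leaving out *jazQ* library 3 raised the *jazQ* values of these genes against WT but gave no call. *SDI1* was then at 0.61 (adjusted p = 0.0898), the glutathione-degrading gene at 0.61 (adjusted p = 0.0566), *SHM7* at 0.58 (adjusted p = 0.0386), *BGLU28* at 0.27 (adjusted p = 0.72) and *LSU1* at 0.03 (adjusted p = 0.977). Between *phyB* and *jazQ* without that library, the glutathione-degrading gene was called as well (-0.75, adjusted p = 0.00492), bringing the count to 3 of 7. Between *jazQ phyB* and *jazQ*, *SDI1* was then called (-0.96, adjusted p = 0.00452). Over all single-library omissions, 8.58% to 15.1% of all genes were called between *phyB* and *jazQ*. Between *jazQ phyB* and *jazQ* the share was 3.04% to 7.42%.

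**Figure D3:**
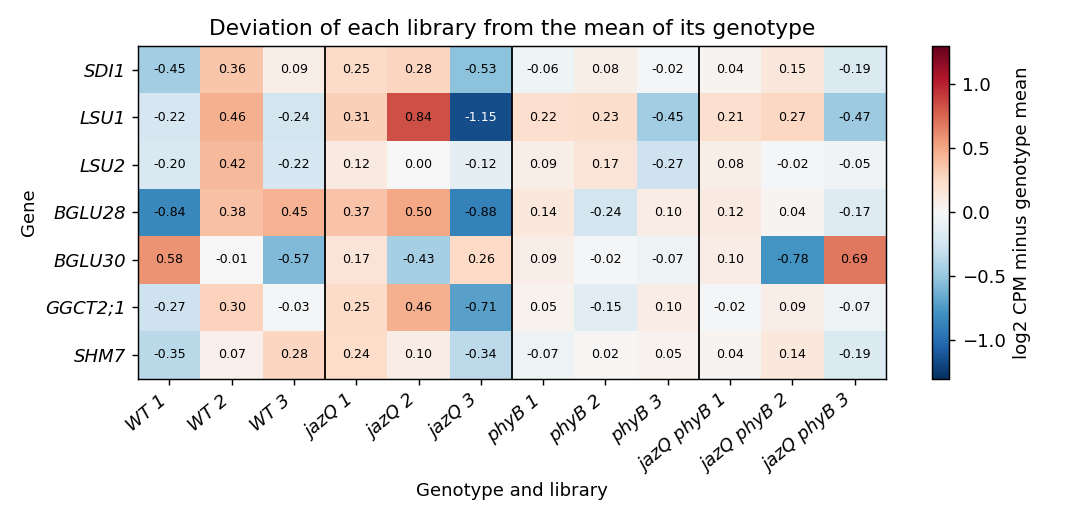
Log2 CPM of each marker gene (rows) in each library (columns) minus the mean of its genotype, from blue (below) to red (above), with the value written in each cell. The column of *jazQ* library 3 is below the genotype mean for every gene but *BGLU30*, down to -1.15 for *LSU1*, and the 3 *phyB* columns show small deviations except for *LSU1*, *LSU2* and *BGLU28*.

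Over these deviations in the 12 libraries, *SDI1* varied with *BGLU28* (Pearson r = 0.91), the glutathione-degrading gene (0.88), *SHM7* (0.88) and *LSU1* (0.82). The glutathione-degrading gene also varied with *BGLU28* (0.88) and *LSU1* (0.84), and *BGLU28* with *SHM7* (0.89). *LSU2* followed less closely, with values from 0.00 with *BGLU30* to 0.61 with *LSU1*. *BGLU30* went the other way, at -0.73 with *SHM7*, -0.60 with *SDI1* and -0.57 with *BGLU28*. The median over the 21 pairs was 0.58, and 12 pairs exceeded 0.5. These correlations describe 12 points that share their library preparation and depth, with *jazQ* library 3 at one end.

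The 5 genes outside the marker genes and lists whose log2 CPM most resembled the mean standardized profile of the 7 over the 12 libraries were AT3G07310 (r = 0.95), AT4G20820 (0.94), AT1G64370 (0.93), AT1G73480 (0.92) and *RL6* (0.92). The files describe AT3G07310 as a DUF760 protein, AT4G20820 as a FAD-binding berberine family protein, AT1G73480 as an alpha/beta-hydrolase and *RL6* as RAD-like 6. Being the highest of a search over all tested genes outside the lists, these values describe the 12 libraries only. The profile itself was highest in *jazQ* library 1 (1.11), with *jazQ* library 2 close to it, and WT library 2 (1.06) and lowest in *phyB* library 3 (-0.77). Over the 56 tested genes of the lists described next, the same r ran from -0.69 for the ATP sulfurylase gene *APS4* to 0.86 for *APR3*. The genes of the plastid adenosine phosphosulfate reductases, which commit sulfate to reduction, were at 0.86 (*APR3*), 0.81 (*APR2*) and 0.74 (*APR1*), and the cysteine synthase gene *OASB* was at 0.80. Other genes of sulfate assimilation were at -0.12 (*APK2*) and -0.42 (*APK4*). *APR1*, *APR3* and *APK4* are named here after their values were seen.

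The closest relatives of the marker genes were followed as well. Of 14 paralogs, 10 passed the filter. Against WT 0 were called in *jazQ*, 1 lower in *phyB* and 1 lower in *jazQ phyB*, where 1.54%, 11.8% and 9.77% of all genes were called. In *jazQ*, 1 had an unadjusted p below 0.05 (17.2% of all genes). *LSU3* was at 2.75, 3.53 and 2.82 CPM in WT, at 3.47, 2.84 and 1.36 CPM in *jazQ*, at 2.53, 2.6 and 1.81 CPM in *phyB* and at 4, 2.23 and 2.36 CPM in *jazQ phyB*. Like its neighbour *LSU1* it was lowest in *jazQ* library 3, and the rare *LSU4* had 7, 9 and 1 counts in the *jazQ* libraries. *LSU3* was at -0.39 in *phyB* against WT (adjusted p = 0.402). AT1G04770, a tetratricopeptide-repeat gene related to *SDI1*, was at -0.25 in *phyB* (adjusted p = 0.225) and -0.50 in *jazQ phyB* (adjusted p = 0.0229). *BGLU29*, *BGLU31* and *BGLU32* had at most 9 counts in any library and were not tested.

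*GGCT2;2*, a paralog of *GGCT2;1*, was at 72.5, 73.8 and 85.4 CPM in WT and at 60, 64.4 and 65.6 CPM in *jazQ phyB*, where it was called lower (-0.29, SE 0.07, adjusted p = 0.00779). Its interaction was also called (-0.44, SE 0.09, adjusted p = 0.00952). Of the serine hydroxymethyltransferase genes, *SHM1*, the abundant mitochondrial photorespiratory enzyme, was at 2288, 2293 and 2479 CPM in WT and at 1632, 1559 and 1654 CPM in *phyB*, and it fell by 0.54 on the log2 scale (SE 0.07, adjusted p = 7.24e-05). *SHM2* to *SHM6* were between -0.09 and 0.16 in *phyB*, none called.

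**Figure D4:**
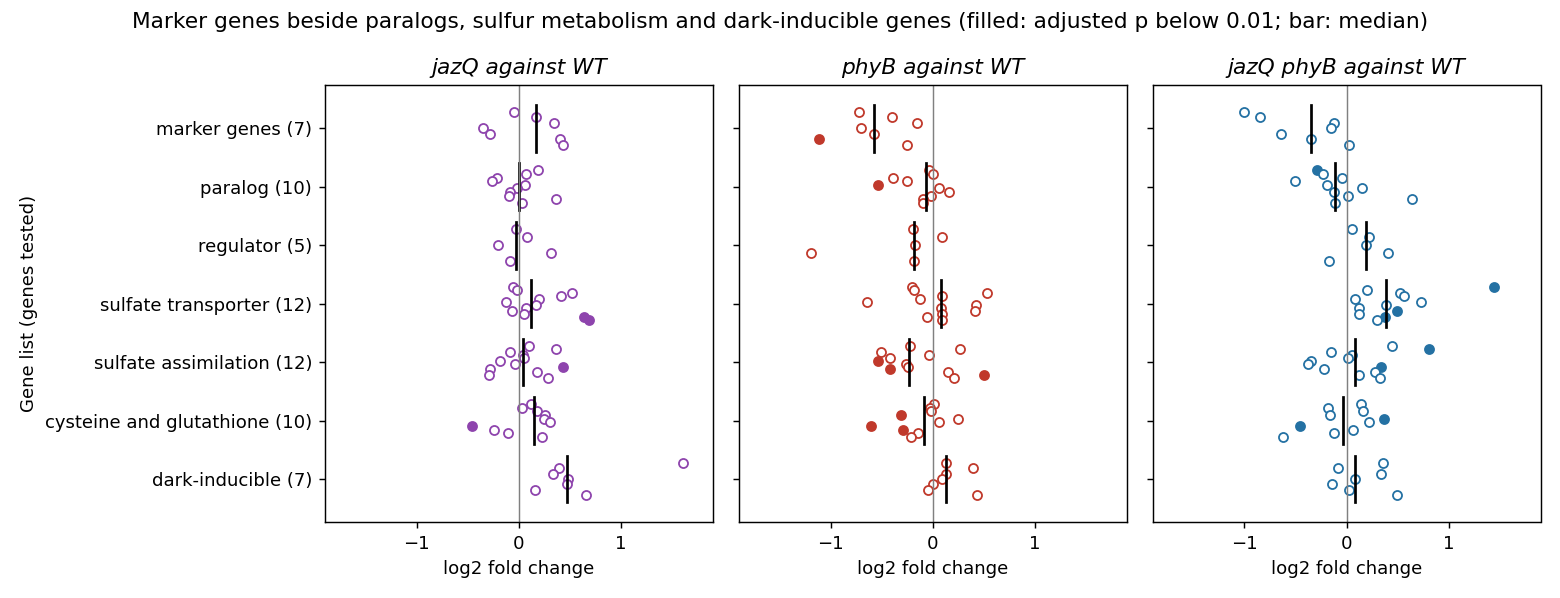
Log2 fold change against WT (x axis) of the marker genes and of the tested genes of 6 lists (y axis, number of genes tested in brackets) in *jazQ*, *phyB* and *jazQ phyB*, with filled symbols for an adjusted p below 0.01 and a black bar at each median. The median of the marker genes is 0.17, -0.57 and -0.35 in the 3 mutants, and that of the 12 sulfate transporter genes is 0.12, 0.08 and 0.38.

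Beyond the paralogs, the wider pathway was followed in lists of regulators (5 genes), sulfate transporters (12), sulfate assimilation (12), cysteine and glutathione synthesis (10) and dark-inducible genes (7). With the paralogs they comprise 60 genes, of which 56 were tested. The lists were chosen with earlier results of these data known, so their shares of calls beside all genes are a description only. In *jazQ*, 3 of the 56 were called higher (5.36%, beside 0.997% of all genes) and 1 lower (1.79%, beside 0.544%) than in WT. The ATP sulfurylase gene *APS1* (0.43, adjusted p = 0.00791) rose, and *SERAT2;1*, a serine acetyltransferase gene of cysteine synthesis, fell (-0.46, adjusted p = 0.00386). *SULTR4;1* (0.64, adjusted p = 0.000155) and *SULTR4;2* (0.69, adjusted p = 0.00134), which encode transporters releasing sulfate from the vacuole, rose. The latter of them was at 20.7, 24.6 and 20.1 CPM in *jazQ* and at 13, 14.5 and 13.1 CPM in WT, so all 3 *jazQ* libraries, library 3 included, were above WT for this transporter.

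In *phyB*, 1 of the 56 was called higher (1.79%, beside 4.7% of all genes) and 6 lower (10.7%, beside 7.06%), together 12.5% beside 11.8% of all genes. *APS4* was higher (0.50, adjusted p = 9.39e-05), and besides *SHM1* the lower genes were *APS2* (-0.42), *APR2* (-0.54, adjusted p = 0.00139), *SERAT2;1* (-0.60), *SERAT2;2* (-0.29) and the plastid cysteine synthase gene *OASB* (-0.31). *APR2* was at 310, 396 and 336 CPM in WT and at 227, 233 and 254 CPM in *phyB*. In *jazQ phyB*, 6 were called higher (10.7%, beside 3.75% of all genes) and 2 lower (3.57%, beside 6.02%). The higher genes were the root sulfate uptake transporter gene *SULTR1;1* (1.44, SE 0.29, adjusted p = 0.00356), *SULTR3;4* (0.49), *SULTR4;1* (0.38), *APS1* (0.34), *APK2* (0.81) and *OASC* (0.37), and the lower genes *GGCT2;2* and *SERAT2;1* (-0.46). In the interaction, *APS2* (0.48), *SERAT2;1* (0.60) and *SERAT2;2* (0.59) were called higher, and *GGCT2;2* and the dark-inducible gene *DIN10* (-0.86, adjusted p = 0.00285) lower, together 8.93% of the 56 beside 3.61% of all genes. The dark-inducible genes, the group that *BGLU30* also belongs to, had 7 of 7 positive values in *jazQ* against WT, with a median of 0.47. Of them 0 were called, while 5 had an unadjusted p below 0.05 (17.2% of all genes). The libraries of 6 did not overlap those of WT (20.4% of all genes). *BGLU30* was at 0.17 in this comparison.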

How the data were processed

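RNA from 12 libraries (4 genotypes, 3 libraries each) was sequenced as single-end 50-base reads. The authors assigned reads to TAIR10 gene models with RSEM 1.2.11 at default parameters and deposited expected counts, all whole numbers (100% of values), and TPM for 33602 genes. RSEM's default counts reads without regard to strand, and no annotated gene overlaps the 7 genes. The reference was TAIR10.1, whose nuclear sequence was taken as that of TAIR10, and it supplied coordinates, upstream sequence and the transcript sequence for the search for shared stretches.

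The deposited counts were tested in R 4.3.3 with edgeR 4.0.16 (TMM, filterByExpr with a minimum count of 10, quasi-likelihood F test, all genotypes in 1 fit, no block) for 7 comparisons, with Benjamini-Hochberg adjustment over the 20957 genes tested and calls at an adjusted p below 0.01. The SE of a log2 fold change was derived as its size without sign divided by the square root of the F statistic. Not overlapping means that all 3 libraries of one genotype lay above all 3 of the other. DESeq2 1.42.0, edgeR's exact test and limma 3.58.1 on the deposited TPM (pseudocounts 1 and 0.1) were alternatives. On simulated counts for *phyB* against WT (20811 genes, 200 changed by 1 on the log2 scale), 79% of changed genes were recovered with 0 false calls. This share holds for 1 size of change and was not split by count level, so it gives no recovery for the 7 genes themselves. Counting limits cover counting error only.

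The 7 genes and the lists were chosen with earlier results of these data known. Text names the 7 genes, list genes called against WT or in the interaction, paralogs, and the 5 genes closest in profile. No consistent pairing of the libraries by replicate number was seen (r of deviations between same-numbered libraries from -0.17 to 0.26, above 0.1 in 3 of 18 pairs). Between *jazQ* and *jazQ phyB* this r was 0.06, 0.18 and 0.26, and pairing by plate was not tested.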

Additional observations from a re-analysis of the deposited data

How the results depend on the processing

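Counts of called marker genes changed by at most 1 gene under the alternatives run. With an adjusted p below 0.05 in place of 0.01, 2 were called in *phyB* against WT and 1 in each of *jazQ phyB* against WT, against *jazQ* and against *phyB*. Over the settings other than left-out libraries, the share of all genes called ran both below and above that of the main test. It was 9.57% to 22.5%, 6.44% to 18.7%, 4.11% to 14.6% and 9.64% to 21.8% in these comparisons, in the same order. The main test gave 11.8%, 9.77%, 6.79% and 11.8%. Against WT, *jazQ phyB* had 1 call with DESeq2 or the exact test, and against *phyB* 1 call with only the genotypes compared in the fit. With limma on log2(TPM + 1) or log2(TPM + 0.1), *phyB* against *jazQ* had 1 call. With single libraries left out, the count ranged from 0 to 1 in *phyB* against WT, in *jazQ phyB* against WT and against *jazQ*. It ranged from 1 to 3 in *phyB* against *jazQ*, where 8.58% to 15.1% of all genes were called.

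The share of all genes called moved with the settings as well, and its ranges close this section. Calls among the context lists in *jazQ* against WT were 10 with DESeq2, 2 with only the genotypes compared and 11 with the exact test. They were 11 at 0.05 and 2 to 6 with single libraries left out. In *phyB* against WT they were 11 with the exact test, 16 at 0.05 and 5 to 7 with libraries left out. In *jazQ phyB* against WT they were 15 with DESeq2, 4 with only the genotypes compared, 13 with the exact test, 19 at 0.05 and 1 to 12 with libraries left out, and for the interaction 9 at 0.05 and 0 to 8. With the replicate number as a block, the lists had 7 calls in *jazQ* against WT, other counts stayed within 1.5 times, and the counts of marker genes did not change. No consistent pairing by number was seen, as 0 of 12 libraries correlated best with its own number in every other genotype.

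Of 588 log2 fold changes of marker genes with 1 library left out, 554 kept their direction and side of the threshold, as did 459 of 469 under the other alternatives. Signs turned only for values that were not called. *LSU1* in *phyB* against *jazQ* was at 0.02 with log2(TPM + 0.1) and from -0.73 to 0.09 with libraries left out. Such ranges in *jazQ* against WT were -0.79 to 0.03 for *LSU1*, -0.42 to 0.27 for *BGLU28* and -0.08 to 0.60 for *BGLU30*, and in *phyB* against WT -0.65 to 0.04 for *BGLU30* and -0.29 to 0.01 for *GGCT2;1*. In *jazQ phyB* against WT they were -0.28 to 0.09 for *LSU1*, -0.26 to 0.03 for *GGCT2;1* and -0.14 to 0.17 for *SHM7*, against *jazQ* -0.18 to 0.64 for *LSU1*, and against *phyB* -0.20 to 0.03 for *LSU2* and -0.05 to 0.08 for *GGCT2;1*. For the interaction they were -0.01 to 0.33 for *LSU2*, -0.54 to 0.14 for *BGLU28* and -0.30 to 0.01 for *SHM7*.

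The share of all genes called moved by over 1.5 times in several settings. Over the settings other than left-out libraries, it was 0.527% to 4.28% in *jazQ* against WT and 9.57% to 22.5% in *phyB* against WT. It was 6.44% to 18.7% in *jazQ phyB* against WT and 2.93% to 9.45% for the interaction. With single libraries left out it was 0.791% to 2.35%, 6.54% to 11.9%, 5.64% to 10.2% and 1.7% to 3.57% in the same order. The exact test, and a fit with only the genotypes compared, gave no interaction value. The rarest transcript, *BGLU30*, had 8 counts in one library, which limits its fold changes. The cause of the differences between settings was not tested.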
